A study of Petunia x hybrida with 9 samples.

Results

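Chorismate mutase and prephenate dehydrogenase stand on the path from chorismate to phenylalanine and tyrosine, and their transcripts are described here in petunia corollas. The loci were chosen by the words chorismate mutase, prephenate dehydrogenase or arogenate dehydrogenase in the description of the best tomato BLAST hit of an assembled locus. The rule found 24 of 94534 loci, from 8 assembled genes and 5 tomato proteins. Of these, 10 loci matched chorismate mutase 1, 7 matched chorismate mutase 2 and 7 matched a prephenate dehydrogenase family protein. No expression value entered the rule. Names are thus borrowed from tomato, and the substrate of the petunia enzymes was not measured.

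The 9 libraries were made from corollas of the Mitchell cultivar of Petunia hybrida, which is white and scented in the evening, harvested at 20 h on day 2 after flower opening. Wild type, line A4 and line A9 gave 3 libraries each, with at least 8 corollas per sample. Per the labels, each line overexpresses PhADT, an arogenate dehydratase, altered by site-directed mutagenesis. The mutation label R353A is attached to the wild-type samples too, 9 of 9 in all. The sources used here give neither the promoter of the transgene nor the number of plants behind a sample. Levels are FPKM, a fragment count per kilobase of locus normalized for library size, and are given as mean ± SD over 3 libraries. Changes are differences of log2(FPKM + 1) with their standard errors, tested with limma over all 53284 loci that averaged at least 1 FPKM with a call where the Benjamini-Hochberg adjusted p was under 0.05. The scale understates changes of low loci.

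Chorismate mutase rearranges chorismate to prephenate and so commits carbon to phenylalanine and tyrosine rather than tryptophan. Plants have a plastid form that responds to aromatic amino acids and a cytosolic form that does not. In petunia the plastid form is called CM1 and the cytosolic form CM2. Prephenate is then converted to arogenate, from which arogenate dehydratase makes phenylalanine and arogenate dehydrogenase makes tyrosine. Some plants also have a prephenate dehydrogenase, which reaches tyrosine by way of hydroxyphenylpyruvate. Scented petunia petals draw heavily on phenylalanine for volatile benzenoids.

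The depth of a library, read from the spacing of its low values, ranged from 30600000 to 43100000 fragments. Loci listed at 0 numbered 1881 to 2078 in wild type, 633 to 976 in the A4-labelled libraries and 888 to 1147 in A9. The dehydratase loci gave no clear check of the overexpression labels. Of 15 tested loci named prephenate dehydratase, 5 were called higher and 2 lower in A9, against 0 higher and 7 lower in the A4-labelled libraries (limma; 8 of 15 had an unadjusted p under 0.05 in each comparison). Over all loci tested, 8.98% were called higher and 10.3% lower in A9, and 15.6% and 16.6% in the A4-labelled libraries. The summed level of the dehydratase loci was 3465 ± 563 FPKM in wild type, 3465 ± 335 FPKM in A9 and 2206 ± 175 FPKM in the A4-labelled libraries. Whether the transcript of the transgene is among those loci was not tested. Directions for both lines therefore rest on their labels. No locus carried the petal identity names searched for, so the tissue label was not checked by them. The summed level of 74 loci named after chlorophyll-binding proteins or the Rubisco small subunit was 991 to 1267 FPKM in wild type, 566 to 930 in the A4-labelled libraries and 501 to 798 in A9. That of 39 loci with pollen names was 163 to 226, 129 to 152 and 157 to 183 FPKM. No locus of either list was at 0 in all libraries. In corolla RNA, fewer cells of a type and less RNA per cell cannot be told apart.

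The dehydrogenase loci were low in wild type, at a mean of at most 3.33 FPKM, and 4 of them rose, by far most in the A4-labelled libraries and to a lower level in A9. The other dehydrogenase loci stayed low in all libraries. Of the 6 loci tested, 4 were called higher in the A4-labelled libraries and 4 in A9, none was called lower, and 2 were not called (6 loci, limma; 4 had an unadjusted p under 0.05 in each comparison). Among all loci tested, 15.6% were called higher in the A4-labelled libraries and 8.98% in A9, of 32.1% and 19.2% called in either direction. At these 4 loci each line lay above wild type without overlap of libraries, as did 21.6% of all loci tested in the A4-labelled libraries and 17.5% in A9. The filter on the mean over 9 libraries bears on these counts. XLOC_019223 passed it only through the A4-labelled libraries, and XLOC_079300, at 1.59 FPKM in wild type, was removed by its lower levels in both lines. Without the filter, 4 of 7 loci were called higher and 1 lower in each line. Of all 94534 loci then tested, 14522 were called higher and 11090 lower in the A4-labelled libraries, and 7389 and 7280 in A9. The median change of the 6 loci was 3.59 in the A4-labelled libraries and 1.04 in A9, against -0.04 and -0.01 over all loci tested. The comparisons share the wild-type libraries. The 4 loci belong to 3 assembled genes of one contig cluster and may share reads, which makes the level of any single one uncertain.

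XLOC_019220 reached the highest level of the dehydrogenase loci. Its best tomato protein, Solyc09g011870.1.1, matched over 137 residues (125 to 261) with 58.39% identity, on the reverse strand of a contig of 1137 bases. It stood at 0.641, 0.820 and 0.684 FPKM in wild-type replicates 1, 2 and 3. In the A4-labelled libraries it stood at 55.7, 50.1 and 57.0 FPKM, and in A9 at 2.05, 3.34 and 5.89 FPKM. Each A9 library lay above each wild-type library and below each A4-labelled library. The mean rose from 0.715 ± 0.0933 to 54.2 ± 3.68 FPKM in the A4-labelled libraries, 75.9-fold, and to 3.76 ± 1.95 FPKM in A9, 5.26-fold. The log2 changes were 5.01 (SE 0.24, adjusted p = 1.60e-06) and 1.39 (SE 0.24, adjusted p = 0.00484), each higher in 3 of 3 libraries. By size of the change in either direction, the locus was 48th among all 53284 loci in the A4-labelled libraries and 1536th in A9. The wild-type values stood for 17 to 23 fragments per library and those labelled A4 for 1297 to 2031. With a pseudocount of 0.1 the change in A9 was 2.12.

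XLOC_019219, on a contig of 811 bases, had the same best tomato protein over the same residues with the same identity. It was at 0.364, 0.460 and 0.371 FPKM in wild type, at 37.3, 33.8 and 40.2 FPKM in the A4-labelled libraries and at 1.47, 2.38 and 5.44 FPKM in A9. No libraries of different groups overlapped. The log2 change was 4.76 (SE 0.29, adjusted p = 6.32e-06) in the A4-labelled libraries and 1.43 (SE 0.29, adjusted p = 0.00922) in A9. With a pseudocount of 0.1 the change in A9 was 2.49. In wild type these levels rested on only 6 to 8 fragments per library.

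XLOC_019222 and XLOC_019223 are loci of another assembled gene, nearest to the tomato dehydrogenase Solyc07g007590.1.1. XLOC_019222 matched residues 45 to 167 with 82.11% identity, and XLOC_019223 matched residues 143 to 331 with 76.72% identity. XLOC_019222 was at 1.08, 0.992 and 0.798 FPKM in wild type, at 38.5, 32.0 and 44.0 FPKM in the A4-labelled libraries and at 2.83, 3.47 and 6.02 FPKM in A9. The 3 groups again did not overlap, in the order wild type, A9, A4. Its log2 change was 4.31 (SE 0.21, adjusted p = 1.71e-06) in the A4-labelled libraries and 1.34 (SE 0.21, adjusted p = 0.00293) in A9.

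XLOC_019223 was the lowest of the 4 rising loci. It was at 0.0654, 0.186 and 0.200 FPKM in wild type, which stood for 1, 3 and 3 fragments. In the A4-labelled libraries it was at 7.54, 5.75 and 9.23 FPKM, and in A9 at 0.472, 0.794 and 1.64 FPKM. The order of the groups was that of the other 3 loci, without overlap. The log2 change was 2.87 (SE 0.22, adjusted p = 2.53e-05) in the A4-labelled libraries and 4.95 with a pseudocount of 0.1. In A9 it was 0.73 (SE 0.22, adjusted p = 0.0441), and 1.99 with a pseudocount of 0.1. Neither wild type (mean 0.151 FPKM) nor A9 (0.969 FPKM) reached 1 FPKM, and the locus was tested between them only because of the A4-labelled libraries. The call in A9 was lost without wild-type replicate 1, 2 or 3 (adjusted p of 0.125, 0.0901 and 0.0933), without A4 replicate 1 (0.0608) and without A9 replicate 2 or 3 (0.0755 and 0.105). It was also lost after quantile normalization (log2 change 0.37, adjusted p = 0.317) and in a fit of wild type and A9 only (0.0542). Over all 15 alternatives tried for it, the adjusted p ranged from 0.0105 to 0.317.

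**Figure D1:**
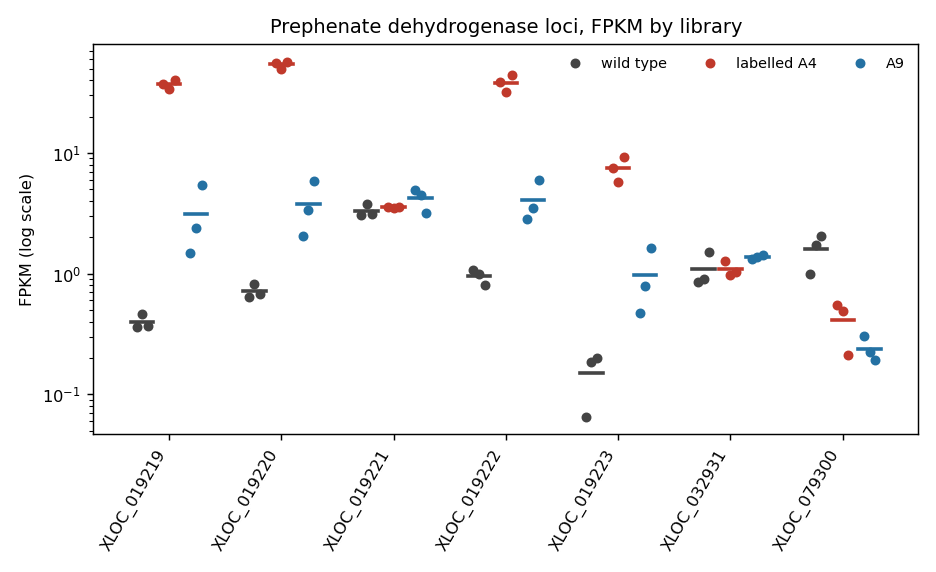
FPKM (log scale) of the 7 prephenate dehydrogenase loci in each library, with a bar at the mean of each group of 3. XLOC_019219, XLOC_019220, XLOC_019222 and XLOC_019223 are highest in the A4-labelled libraries and intermediate in A9, whereas XLOC_019221 and XLOC_032931 stay at 0.853 to 4.93 FPKM in every library.

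The difference between the lines was itself tested. All 4 rising loci were called higher in the A4-labelled libraries than in A9, where 9.91% of all loci tested were called higher and 18.0% in either direction. At all 4 every A4-labelled library lay above every A9 library, as at 17.7% of all loci tested. A further 18.6% of all loci tested lay lower without overlap. The log2 differences were 3.62 (SE 0.24, adjusted p = 3.14e-05) for XLOC_019220, 3.33 (SE 0.29, adjusted p = 1.48e-04) for XLOC_019219, 2.98 (SE 0.21, adjusted p = 4.48e-05) for XLOC_019222 and 2.13 (SE 0.22, adjusted p = 3.93e-04) for XLOC_019223. These 4 calls held under every alternative run for the loci. The alternative filter of 5 FPKM is no separate check, since 3 of the loci passed it only through the A4-labelled libraries. Within A9 the replicates were widely spread, and replicate 3 was the highest at all 4 loci. Without it the change of XLOC_019220 from wild type was 1.09 (adjusted p = 0.003), that of XLOC_019219 1.05 (0.00261) and that of XLOC_019222 1.08 (0.00264).

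The rising loci did not keep a fixed ratio to each other. XLOC_019220 was 1.76 to 1.84 times as high as XLOC_019219 in the wild-type libraries, 1.42 to 1.49 times in those labelled A4 and 1.08 to 1.40 times in A9. Against XLOC_019222 it was lower in wild type (0.594 to 0.857 times), higher in the A4-labelled libraries (1.30 to 1.56 times) and 0.726 to 0.978 times as high in A9. The wild-type ratios rest on few fragments.

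XLOC_019221 is the locus with the longest match to Solyc07g007590.1.1, 87.92% identical over 331 residues (45 to 375), and belongs to the same assembled gene as XLOC_019222 and XLOC_019223. It was called in neither line. It stood at 3.07, 3.76 and 3.15 FPKM in wild type, at 3.57, 3.48 and 3.59 FPKM in the A4-labelled libraries and 4.93, 4.44 and 3.21 FPKM in A9. The groups overlapped. The log2 change was 0.08 in the A4-labelled libraries (95% interval -0.21 to 0.36, adjusted p = 0.684) and 0.25 in A9 (-0.03 to 0.54, adjusted p = 0.201). Without A9 replicate 3 the change in A9 was 0.40 and was called (adjusted p = 0.0327). Summed over the 3 loci of this assembled gene, the level was 4.43 ± 0.436, 49.2 ± 7.78 and 9.27 ± 1.41 FPKM in wild type, A4 and A9. In wild type XLOC_019221 was the highest dehydrogenase locus, whereas in the A4-labelled libraries it was exceeded by all 4 rising loci.

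XLOC_032931 had the tomato match of highest identity among the dehydrogenase loci, 89.35% identical to Solyc06g050630.2.1 over 263 residues. It was at 0.853, 0.906 and 1.50 FPKM in wild type, at 1.27, 0.980 and 1.03 FPKM in the A4-labelled libraries and 1.33, 1.37 and 1.44 FPKM in A9. Its log2 change was 0.02 in the A4-labelled libraries (95% interval -0.25 to 0.28, adjusted p = 0.932) and 0.20 in A9 (-0.06 to 0.47, adjusted p = 0.27). The sign in the A4-labelled libraries turned without wild-type replicate 1 (-0.06) or 2 (-0.04), without A4 replicate 1 (-0.04) and after quantile normalization (-0.06), and was not called in any of these. The change in A9 was called without wild-type replicate 3 (0.34, adjusted p = 0.041).

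XLOC_079300 went the other way. It has a weak match to the first 74 residues of Solyc07g007590.1.1, 48.72% identical, and was below the filter, with a mean of 0.748 FPKM. It was at 0.991, 1.74 and 2.04 FPKM in wild type, at 0.548, 0.490 and 0.210 FPKM in the A4-labelled libraries and 0.301, 0.222 and 0.191 FPKM in A9. Every library of both lines lay below every wild-type library. These values stood for 35 to 72 fragments in wild type, 10 to 26 in the A4-labelled libraries and 7 to 12 in A9. Without the filter it was called lower in both comparisons, with log2 changes of -0.86 (SE 0.15, limma adjusted p = 0.00321) and -1.04 (SE 0.15, adjusted p = 0.00198).

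**Figure D2:**
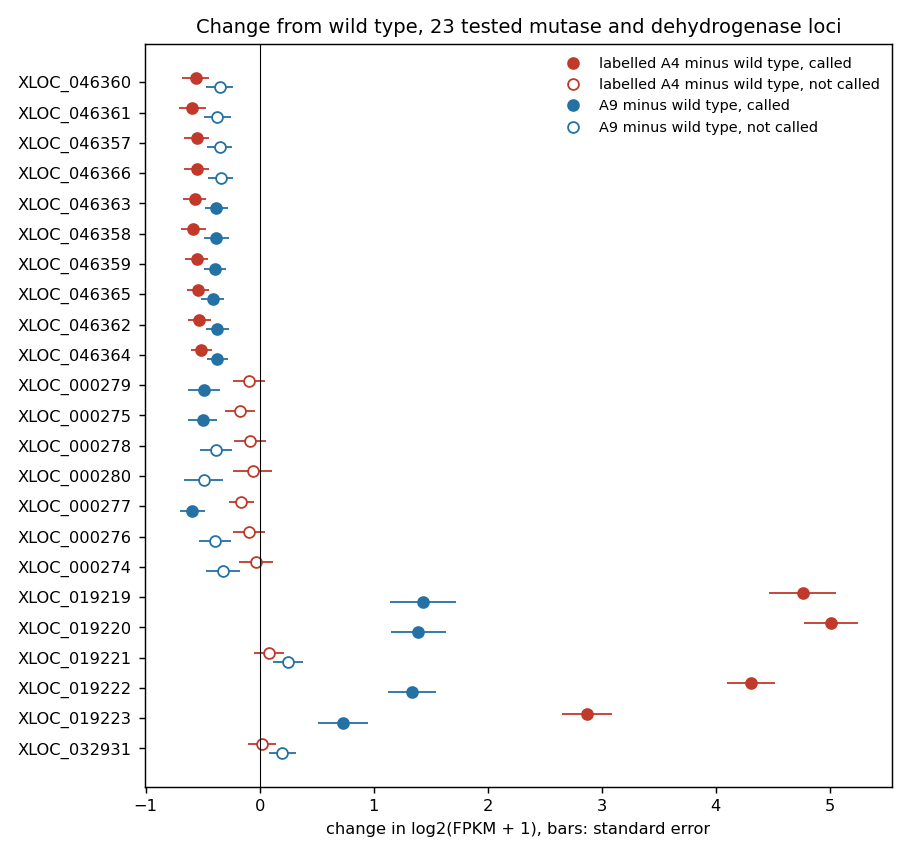
Change in log2(FPKM + 1) from wild type, with standard errors, of the 23 tested loci in the A4-labelled libraries (red) and in A9 (blue); filled points were called at an adjusted p under 0.05. The 10 chorismate mutase 1 loci at the top lie left of 0 in both lines, the 7 chorismate mutase 2 loci lie farther left in A9, and 4 dehydrogenase loci lie far to the right, up to 5.01.

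Chorismate mutase 1 was the abundant mutase of the corolla and fell in the A4-labelled libraries. All 10 of its loci were called lower there, where 16.6% of all loci tested were, with changes from -0.59 to -0.51 and a median of -0.55. All come from a single assembled gene, may share reads, and are not independent of each other. In A9, 6 of the 10 were called lower, against 10.3% of all loci tested, and 4 were not called, with a median change of -0.37. In each line all 10 loci lay below wild type without overlap of libraries, as did 26.3% of all loci tested in the A4-labelled libraries and 20.8% in A9.

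The leading locus was XLOC_046360, which matched residues 1 to 214 of Solyc02g088460.2.1 with 74.21% identity. It stood at 266.5, 300.4 and 316.6 FPKM in wild type, at 196.3, 222.3 and 181.7 FPKM in the A4-labelled libraries and at 256.9, 235.0 and 200.5 FPKM in A9. Its mean over the 9 libraries was above that of 99.3% of tested loci. Every library of both lines lay below the lowest wild-type library, and the lines overlapped each other. The log2 change was -0.56 (SE 0.12, adjusted p = 0.00891) in the A4-labelled libraries, 0.679 times the wild-type level. In A9 it was -0.35 (SE 0.12, adjusted p = 0.0775), 0.784 times the wild-type level and not called.

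XLOC_046361 was next, at 57.3, 61.1 and 65.8 FPKM in wild type, at 40.2, 45.1 and 36.4 FPKM in the A4-labelled libraries and 52.6, 49.6 and 40.5 FPKM in A9. It had the same order of groups. Its change was -0.59 (SE 0.12, adjusted p = 0.00659) in the A4-labelled libraries and -0.37 (SE 0.12, adjusted p = 0.0674) in A9. These 2 loci are the only ones of the 10 whose tomato match starts at residue 1; the match of the other 8 starts at residue 56 or 57 and is 84.40% to 85.79% identical. The other 8 loci, on contigs of 3011 to 6493 bases, had wild-type means of 11.9 to 28.9 FPKM.

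The calls of chorismate mutase 1 in the A4-labelled libraries held for all 10 loci under each alternative run on loci, including without each library in turn. Those in A9 were less firm. Without wild-type replicate 2 or 3, or A9 replicate 1 or 3, 0 of the 10 loci were called in A9, and 2 were called in a fit of wild type and A9 only. With the replicate number as a block, 8 were called, XLOC_046357 (adjusted p = 0.0314) and XLOC_046366 (0.0392) among them, which were at 0.058 and 0.0678 without it. Summed over its loci, the gene fell from 519 ± 42.6 to 349 ± 28.2 FPKM in the A4-labelled libraries (log2 change -0.57, SE 0.11, adjusted p = 0.00377) and to 403 ± 39.2 FPKM in A9 (-0.37, SE 0.11, adjusted p = 0.0391). The lines were not shown to differ. Of the 10 loci of this gene, 0 were called in the A4-labelled libraries against A9 (limma, with 0 at an unadjusted p under 0.05). Over all loci tested, 18.0% were called there in either direction and 8.13% lower. The interval of the difference at XLOC_046360 was -0.48 to 0.08. At 6 of the 10 loci every A4-labelled library lay below every A9 library, as did 18.6% of all loci tested. The loci with chlorophyll-binding and Rubisco names were lower in both lines too, and their part in the fall was not tested.

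The composition of the chorismate mutase 1 transcripts varied little. XLOC_046360 held 54.9% to 59.5% of the summed FPKM of the 10 loci over the 9 libraries, with means of 56.7% in wild type and 57.2% in each line. XLOC_046361 held 11.8%, 11.6% and 11.8% on average in wild type, A4 and A9, and no other locus exceeded 6.16%.

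**Figure D3:**
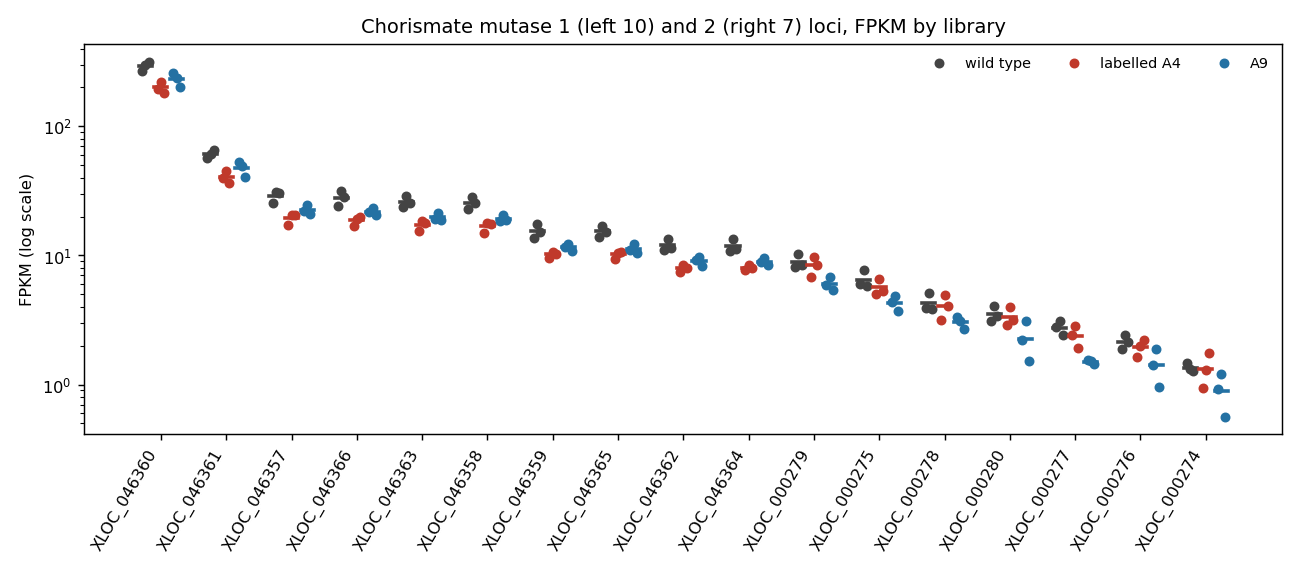
FPKM (log scale) of the 10 chorismate mutase 1 loci (left) and the 7 chorismate mutase 2 loci (right) in each library, with a bar at the mean of each group of 3. All libraries of both lines lie below wild type at each chorismate mutase 1 locus, whereas wild type and the A4-labelled libraries overlap at each chorismate mutase 2 locus.

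Chorismate mutase 2 was expressed at a far lower level. It fell in A9 at 3 loci and was not called in the A4-labelled libraries. Its 7 loci summed to 29.5 ± 3.80 FPKM in wild type, 27.1 ± 4.22 FPKM in the A4-labelled libraries and 19.5 ± 3.06 FPKM in A9. This was 5.002% to 6.25% of the chorismate mutase 1 sum in wild type, 6.85% to 8.22% in the A4-labelled libraries and 4.55% to 5.36% in A9. In the A4-labelled libraries, 0 of 7 loci were called (limma, with 0 at an unadjusted p under 0.05), against 32.1% of all loci tested. Wild type and A4 overlapped at all 7, whereas 21.6% of all loci tested lay higher and 26.3% lower without overlap. The 7 loci come from 2 assembled genes. In A9, 3 of 7 were called lower and 4 were not called, with a median change of -0.49, and 6 of 7 lay below wild type without overlap (10.3% and 20.8% of all loci tested).

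XLOC_000279, the highest of them, matched the tomato protein Solyc11g017240.1.1 over residues 1 to 255 with 80.86% identity. It was at 8.15, 10.2 and 8.41 FPKM in wild type, at 6.83, 9.77 and 8.48 FPKM in the A4-labelled libraries and 5.94, 6.78 and 5.41 FPKM in A9. All A9 libraries lay below the others. Its change in A9 was -0.49 (SE 0.14, adjusted p = 0.036), and in the A4-labelled libraries -0.09 (95% interval -0.40 to 0.22, adjusted p = 0.653), with the sign turned without A4 replicate 1 (0.03).

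XLOC_000277 was at 2.78, 3.10 and 2.42 FPKM in wild type, at 2.43, 2.85 and 1.90 FPKM in the A4-labelled libraries and 1.54, 1.52 and 1.44 FPKM in A9. Its fall in A9 was the largest of the 7 (log2 change -0.59, SE 0.11, adjusted p = 0.00751) and was called under all 15 alternatives run for it. XLOC_000275 fell by 0.50 (SE 0.13, adjusted p = 0.0312) in A9. It was at 6.02, 7.73 and 5.78 FPKM in wild type, at 5.06, 6.56 and 5.35 FPKM in the A4-labelled libraries and 4.39, 4.83 and 3.68 FPKM in A9. The locus was no longer called when wild-type replicate 1 or 2 was left out (adjusted p of 0.0596 and 0.0892) or A9 replicate 1 or 3 (0.0658 and 0.102). XLOC_000279 was no longer called after leaving out wild-type replicate 1, 2 or 3 (0.06, 0.108 and 0.0729), A4 replicate 3 (0.0525) or A9 replicate 1 or 3 (0.0848 and 0.114). With the replicate number as a block, XLOC_000280 was also called (log2 change -0.49, adjusted p = 0.0234). Without A9 replicate 2, XLOC_000276 (-0.52, adjusted p = 0.0331) and XLOC_000280 (-0.67, adjusted p = 0.0234) were called too.

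The other 4 loci of chorismate mutase 2 had wild-type means of 1.35 to 4.29 FPKM and changes of -0.49 to -0.32 in A9, none called. Summed over the 6 loci of its main assembled gene, chorismate mutase 2 reached 28.1 ± 3.83 FPKM in wild type, 25.8 ± 4.07 FPKM in the A4-labelled libraries and 18.6 ± 2.74 FPKM in A9. The sum fell in A9 (log2 change -0.57, SE 0.15, adjusted p = 0.0251) and was not called in the A4-labelled libraries (-0.13, SE 0.15, adjusted p = 0.551).

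Whether the lines differ in chorismate mutase 2 depended on the fit. Against A9, 1 of 7 loci was called higher in the A4-labelled libraries (XLOC_000277, log2 difference 0.43, SE 0.11, adjusted p = 0.0302), and 0 lower, where 9.91% of all loci tested were called higher and 8.13% lower. That call was lost without A4 replicate 1 or 2 (adjusted p of 0.0667 and 0.092), without A9 replicate 1, 2 or 3 (0.0712, 0.0621 and 0.0834) and in a fit of A4 and A9 only (0.055). With the replicate number as a block, 4 of 7 were called, XLOC_000275 (adjusted p = 0.0299), XLOC_000279 (0.0228) and XLOC_000280 (0.0374) in addition. XLOC_000279 was also called without A4 replicate 1 (0.0299), and XLOC_000280 without A9 replicate 2 (0.0339).

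Set beside the neighbouring steps, the summed dehydrogenase loci were the lowest in wild type and changed most in both lines. The rise lay mostly in the 4 rising loci. Chorismate synthase, which makes chorismate, summed to 2526 ± 164 FPKM over 8 loci in wild type, 1918 ± 105 FPKM in the A4-labelled libraries and 1977 ± 134 FPKM in A9. Of these 8 loci, all from 1 assembled gene, 6 fell in the A4-labelled libraries and 6 in A9, where 16.6% and 10.3% of all loci tested did, with median changes of -0.38 and -0.34. XLOC_073766, the highest of them, fell by 0.37 (SE 0.10, adjusted p = 0.0214) and 0.34 (SE 0.10, adjusted p = 0.0428) on the log2 scale. The same word search took in 4-amino-4-deoxychorismate synthase, which draws chorismate toward folate. Of its 9 tested loci, again from 1 assembled gene, 3 fell in the A4-labelled libraries and 6 in A9, against the same shares of all loci, with median changes of -0.22 and -0.31.

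The summed level of the 7 dehydrogenase loci stood at 7.07, 8.86 and 8.74 FPKM in wild type, at 144.4, 126.6 and 155.1 FPKM in the A4-labelled libraries and 13.4, 16.0 and 23.8 FPKM in A9. The dehydratase loci summed to 3465 ± 563, 2206 ± 175 and 3465 ± 335 FPKM in the same order. The dehydrogenase sum was thus 0.219% to 0.254% of the dehydratase sum in wild type, 6.05% to 6.82% in the A4-labelled libraries and 0.418% to 0.705% in A9. The 3 ranges did not overlap. The dehydratase sum includes a short contig whose FPKM is uncertain. Relative to chorismate mutase 1 the dehydrogenase sum was 1.50% to 1.63% in wild type, 33.2% to 46.9% in the A4-labelled libraries and 3.10% to 6.65% in A9. The dehydrogenase and dehydratase sums and these ratios run over loci that may share reads, are descriptions and were not tested. Sums per assembled gene were tested, and their loci may share reads too.

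**Figure D4:**
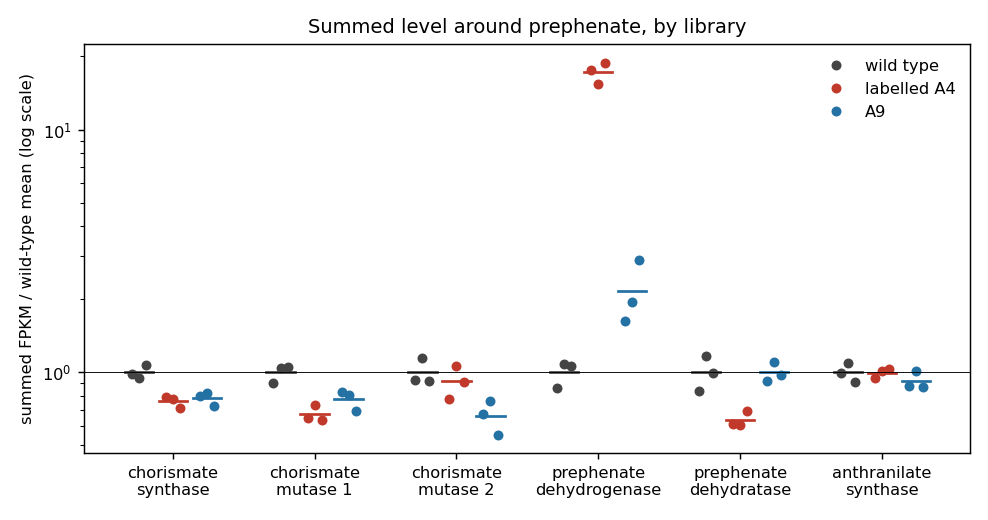
Summed FPKM of 6 enzymes around prephenate in each library, divided by the wild-type mean of that enzyme (log scale), with a bar at the mean of each group of 3. The sum labelled anthranilate synthase is over 11 loci of a search that also sought isochorismate synthase and aminodeoxychorismate names. The dehydrogenase sum is 17.3 times the wild-type mean in the A4-labelled libraries and 2.16 times in A9, whereas the group means of the other 5 enzymes lie between 0.636 and 1.00 times.

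Among other users of chorismate, anthranilate synthase, which opens the tryptophan branch, had 7 tested loci, of which 0 were called in any of the 3 comparisons (limma; 0 had an unadjusted p under 0.05). They came from a list of 11 loci, whose word search also sought isochorismate synthase and aminodeoxychorismate names. That list summed to 36.9 ± 3.39 FPKM in wild type, 36.8 ± 1.65 FPKM in the A4-labelled libraries and 33.9 ± 2.81 FPKM in A9. Of 4 tested tyrosine aminotransferase loci, 0 were called in any comparison (limma; 0 had an unadjusted p under 0.05 in the A4-labelled libraries, 1 in A9 and 1 between the lines). The list of tyrosine breakdown and tocopherol enzymes held 53 tested loci, of which 4 rose and 14 fell in the A4-labelled libraries and 1 rose and 7 fell in A9, but only 27 without the glutathione S-transferases that its word search took in. Of those 27, 3 rose and 0 fell in the A4-labelled libraries, and 0 rose and 2 fell in A9 (limma; 6 had an unadjusted p under 0.05 in each comparison). Over all loci tested, 15.6% rose and 16.6% fell in the A4-labelled libraries, and 8.98% and 10.3% in A9. Between the lines, 18.0% were called in either direction. Tocopherol cyclase XLOC_075329 rose from 6.99 ± 0.982 to 9.34 ± 0.812 FPKM in the A4-labelled libraries (log2 change 0.38, SE 0.12, adjusted p = 0.0464). The dioxygenase of hydroxyphenylpyruvate, XLOC_079303, through which tyrosine is broken down, was at 77.0 ± 9.85 FPKM in wild type, 67.1 ± 8.76 FPKM in the A4-labelled libraries and 53.6 ± 10.7 FPKM in A9 (adjusted p of 0.399 and 0.0565).

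Loci with the most similar pattern were sought among 16835 loci of at least 5 FPKM with an informative tomato name, by Pearson r of log2(FPKM + 1) over the 9 libraries. The libraries fall into 3 groups, so a high r mostly reflects the group means, and it is given as a description. A locus named xanthoxin dehydrogenase, XLOC_033985, came first for XLOC_019219, XLOC_019220 and XLOC_019222 (r of 0.9975, 0.9971 and 0.997). It was at 0.958 ± 0.0706 FPKM in wild type, 16.6 ± 2.40 FPKM in the A4-labelled libraries and 2.92 ± 1.04 FPKM in A9. The expansin XLOC_012210 (0.161 ± 0.0277, 101.8 ± 22.6 and 3.22 ± 0.851 FPKM) was next for XLOC_019220, followed by arginine decarboxylase XLOC_018523 (22.2 ± 2.63, 249.1 ± 47.7 and 40.2 ± 11.4 FPKM). An r above 0.95 to XLOC_019220 was found at 209 of the 16835 candidate loci. XLOC_033985 and XLOC_012210 passed the filter of 5 FPKM on the mean only through the A4-labelled libraries. The filter thus bears on which loci of this pattern could be found.

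For chorismate mutase 1 XLOC_046360, r exceeded 0.95 at 32 candidates. The closest were a 3-beta hydroxysteroid dehydrogenase family locus, XLOC_020576 (r = 0.9832), and the methionine synthase XLOC_024676 (r = 0.9808), named after its homocysteine methyltransferase activity, at 603 ± 22.1, 416 ± 28.9 and 462 ± 55.6 FPKM in wild type, A4 and A9. Next was the chlorophyll-binding protein locus XLOC_038897 (r = 0.9752), at 23.8 ± 2.30, 5.16 ± 2.55 and 8.20 ± 2.84 FPKM. For chorismate mutase 2 XLOC_000279 the closest was a wound induced protein, XLOC_012530 (r = 0.9763), at 533 ± 89.5, 409.8 ± 122 and 247.8 ± 48.6 FPKM, and r exceeded 0.95 at 17 candidates.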

How the data were processed

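Corolla RNA of 3 genotypes was sequenced in 9 libraries. The authors deposited FPKM per locus. The submitters' processing notes list Bowtie2 2.2.6 and FastQC 0.11.2. How contigs were assembled, FPKM computed and libraries scaled is not given in the sources used here. A second deposited table lists, per the file headers, a tomato hit per locus with its identity in percent, its bit score, e-value and description. No genome was used.

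Titles gave the groups and replicate numbers. Separate plants are not stated, and the p-values measure spread between samples that may be technical. The loci and gene lists were chosen with earlier results of these data known, and a p-value here is not independent support for them. Any locus of the rule could be named. Log2(FPKM + 1) was fitted for loci averaging at least 1 FPKM with limma 3.58.1 in R 4.3.3, as 3 group means with a trended prior, and adjusted over all loci. The steps were tested on simulated data. No count model was run, since FPKM are not counts. Depth came from low values at contigs of 700 to 2000 bases, of which 100% lay within 0.1 of whole fragments.

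To check the replicate numbers, deviations from group means were correlated between libraries with the same number. They gave 0.248, 0.344 and 0.104 for wild type and A9, and 0.240, 0.261 and 0.249 for A4 and A9. Both were read as paired. Wild type and A4 gave 0.229, 0.192 and -0.125 and were not. This pairing rests on that check, since no label ties a number to a day or batch, and it is not coherent. The main fit had no term for it, so the main p-values ignore it. The replicate block was run only as an alternative. Alternatives covered the pseudocount, the filter, scaling, the samples fitted, the replicate block, sums per assembled gene and leaving out each library.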

Additional observations from a re-analysis of the deposited data

Results flagged for a closer look

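At 5 of 23 tested loci the change from wild type differed between the lines by the direct test of A4 against A9. That test is equivalent, since both share the wild-type libraries. Over all loci tested, 18.0% were called in that comparison. The 5 loci included XLOC_019220 (log2 difference 3.62), XLOC_019219 (3.33), XLOC_019222 (2.98) and XLOC_019223 (2.13). These are prephenate dehydrogenase loci, higher in each A4-labelled library than in each A9 library. The chorismate mutase 2 locus XLOC_000277 (0.43) was the other, and its call was lost in 6 of 15 alternatives. No group had enough libraries for a check of single outlying samples.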

How the results depend on the processing

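Of 1083 values of single loci under the alternatives, 1002 kept their direction and their side of the threshold, 53 lost a call, 18 gained one and 10 turned sign, none of them called. The median-ratio and quantile scalings moved the median change of all loci by at most 0.02. The number of loci called lower in A9 against wild type, 9, was 5 in a fit of those 2 groups, 2 (of 7 genes) when loci were summed per assembled gene, and 1 to 11 without a library in turn: 1 without wild-type replicate 2, A9 replicate 1 or A9 replicate 3, and 2 without wild-type replicate 3. The number called higher in A4 against A9, 5, was 3 at a mean of at least 5 FPKM, where 15 loci were tested, 3 of 7 genes when summed, and 8 with the replicate block. The 3 loci called at the higher filter were XLOC_019219, XLOC_019220 and XLOC_019222. They passed it only through the A4-labelled libraries, with means of at most 0.957 FPKM in wild type and 4.11 FPKM in A9. That setting is therefore no separate check of these calls. The number called lower in the A4-labelled libraries, 10, was 1 of 7 genes when summed. The loci called lower came from 2 genes in A9 and 1 in the A4-labelled libraries, the same numbers as when summed. Those called higher in A4 against A9 came from 4 genes. The summed main gene of chorismate mutase 2 was not called there (limma log2 difference 0.45, adjusted p = 0.0641). The cause of the other changes was not tested. The replicate block changed no call beside those given above. For A4 against wild type, leaving out a library in turn moved the change of XLOC_000274 from -0.16 to 0.09, XLOC_000278 from -0.20 to 0.06, XLOC_000279 from -0.20 to 0.03, XLOC_000280 from -0.16 to 0.02 and XLOC_032931 from -0.06 to 0.15; XLOC_032931 was at -0.06 after quantile normalization. Depth limits the low dehydrogenase loci most, with 1 to 8 fragments in wild type at XLOC_019219 and XLOC_019223.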
